A study of Mus musculus with 4 samples.

Results

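The distal chromosome 7 imprinted domain was taken as the CTCF peaks that overlap chromosome 7 from 149650000 to 150750000 of the mouse genome build mm9, a stretch of 1.1 Mb chosen by position because it holds H19, Igf2, Cdkn1c and Kcnq1ot1. It held 49 of the 70742 regions that the 3 deposited peak lists make when peaks sharing at least 1 bp are joined. The peaks came from chromatin immunoprecipitation followed by sequencing (ChIP-seq) in MC3T3-E1 subclone 4, a mouse calvarial preosteoblast line labelled C57BL/6, of passage 28 to 31. The stages were proliferation on day 0, matrix deposition on day 9 and mineralization on day 28. The medium used for differentiation held ascorbic acid at 280 µM and beta-glycerophosphate at 10 mM. An input library of day 9 cells was not analysed here. Each day is 1 list with no replicate list, so differences between days carry no replicate error and no test between days was possible.

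CTCF is a zinc-finger protein that binds DNA at insulators and at the anchors of chromatin loops. In imprinted domains a gene is expressed from the copy inherited from a given parent. Upstream of H19 lies an imprinting control region that CTCF binds on the unmethylated maternal copy, where it keeps Igf2 from enhancers beyond H19. On the paternal copy DNA methylation prevents that binding and Igf2 is expressed. H19 is a maternally expressed long noncoding RNA, and Igf2 encodes a paternally expressed insulin-like growth factor. Kcnq1ot1 is a paternally expressed noncoding RNA that starts within Kcnq1 and silences neighbouring genes on that copy. Among its targets is Cdkn1c, a maternally expressed inhibitor of cyclin-dependent kinases. A peak list does not separate the parental copies.

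No annotation of build mm9 was used, so no peak was assigned to a gene body, promoter or control region. Gene positions are the approximate ones of the selection rule, near 149.76 to 149.86 Mb for H19 and Igf2 and near 150.45 to 150.57 Mb for Cdkn1c and Kcnq1ot1. In the RefSeq table of another build, GRCm38.p6, the order along the chromosome is H19, Igf2, Ins2, Th, Ascl2, Tspan32, Cd81, Tssc4, Trpm5, Kcnq1, Kcnq1ot1, Cdkn1c, Slc22a18, Phlda2, Nap1l4, Cars, Osbpl5 and Dhcr7. In that table Kcnq1ot1 reaches into the distances from H19 that the second stretch covers, and Cdkn1c lies wholly beyond them. The second stretch is therefore called by its coordinates below, since it may not hold Cdkn1c.

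Sequence was at hand only for gene starts, from RefSeq windows of 300 bases (250 before to 50 after the start) on GRCm38.p6, whose positions are not those of the peaks. Igf2 had 4 such windows and Kcnq1ot1 had 1. Kcnq1ot1 and the Igf2 start with the most CpG are shown because CpG, in capitals here, is the dinucleotide that carries DNA methylation. Whether either window is methylated on a parental copy was not tested. Both are printed 5′ to 3′ on the minus strand, Kcnq1ot1 from chr7:143296498-143296797 and Igf2 from chr7:142658755-142659054.
Kcnq1ot1: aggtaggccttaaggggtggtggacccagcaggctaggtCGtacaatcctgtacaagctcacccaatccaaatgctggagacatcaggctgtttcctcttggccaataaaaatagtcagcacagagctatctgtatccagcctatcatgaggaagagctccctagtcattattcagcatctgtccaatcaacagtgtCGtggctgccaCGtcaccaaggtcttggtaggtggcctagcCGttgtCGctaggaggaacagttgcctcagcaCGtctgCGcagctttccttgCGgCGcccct
Igf2: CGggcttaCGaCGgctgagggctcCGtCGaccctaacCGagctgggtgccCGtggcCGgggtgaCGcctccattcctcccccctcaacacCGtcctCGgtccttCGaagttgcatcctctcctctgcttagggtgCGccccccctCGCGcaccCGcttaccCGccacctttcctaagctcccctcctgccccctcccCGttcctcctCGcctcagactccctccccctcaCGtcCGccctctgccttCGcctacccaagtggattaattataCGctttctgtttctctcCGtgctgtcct

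The Kcnq1ot1 window held 9 CpG, and 45.8% of the 32851 RefSeq windows of this length held as many or more. The Igf2 window shown held 24 CpG, a number reached by 19.98% of the windows, and the other Igf2 windows held 2, 14 and 7. No methylation was measured, so these counts describe the sequence only.

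The domain held many CTCF peaks on every day, with median scores above those of the whole lists. They were not spread over all of it, since no listed peak lay between 150340361 and 150562660 on any day. The day 0 list held 50 of its 67679 peaks there, the day 9 list 43 of 42774 and the day 28 list 45 of 45793. The score deposited with each peak is taken to be the peak caller's −10 log10 of its p-value. It grows with sequencing depth, which is unknown here, so scores are read only within a list. All scores of 3100 or more count as saturated and tied, and are given as 3100. At day 0 the domain's peaks scored between 105.86 and 3100 with a median of 1817, against a median of 552.6 over the whole day 0 list. At day 9 they scored between 154.3 and 3100 with a median of 924.1, against 502.2 over that list. At day 28 they scored between 100.3 and 3100 with a median of 1505.5, against 659.4. The domain's median peak thus stood within its own list at percentile 72.5 on day 0, 63.2 on day 9 and 65.7 on day 28. Whole lists also hold regions without a peak on some day. Regions with a peak in every list stood at median percentiles of 74.5, 63.2 and 68.6 in the domain. Over all chromosomes such regions stood at 72.4, 56.0 and 59.3, in the same order of days. Among such regions the domain's median was thus close to that over all chromosomes on day 0. None of these differences was tested, because neighbouring peaks of a domain are not replicates.

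**Figure D1:**
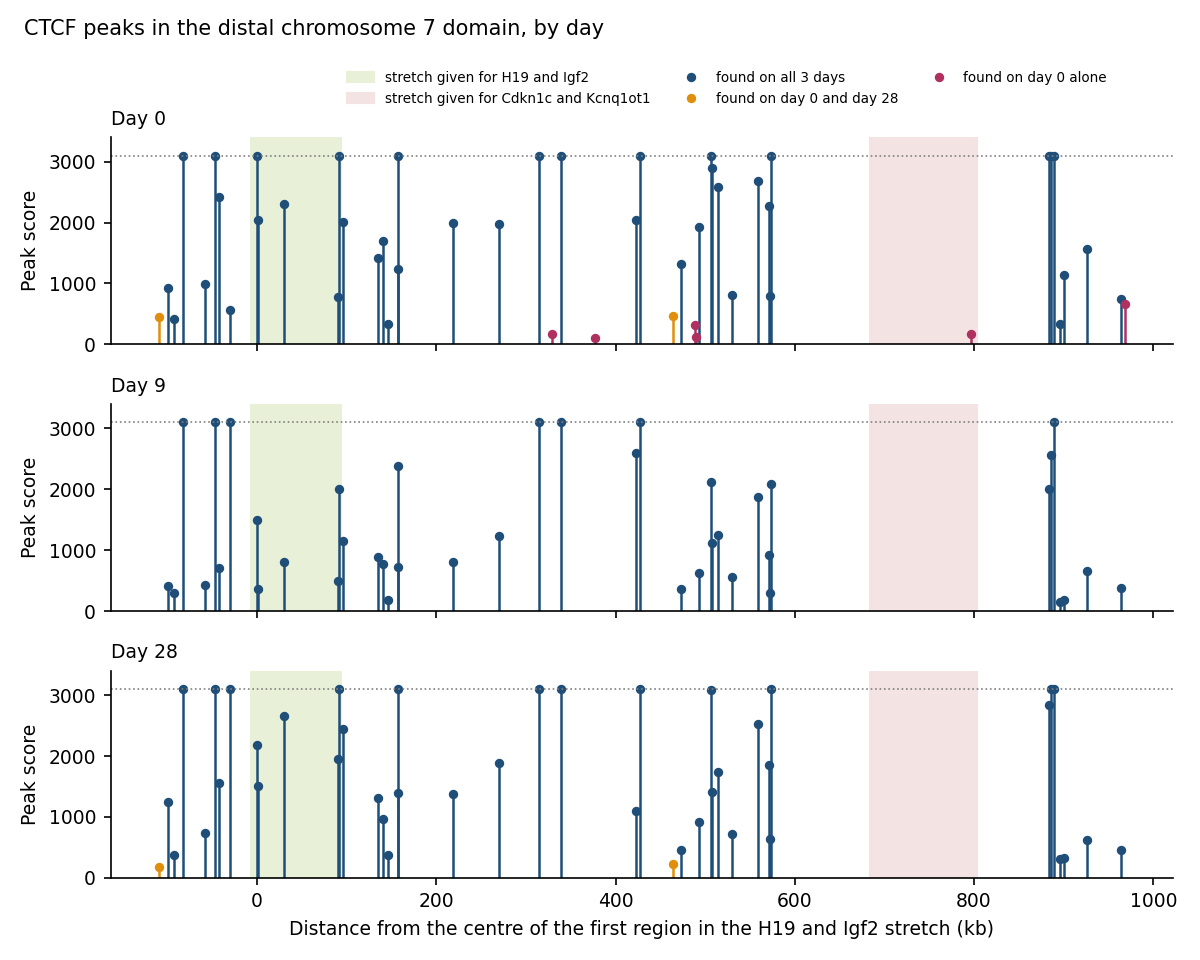
Each stem is a CTCF region of the domain, placed by its distance in kb from the first region of the H19 and Igf2 stretch, with the highest peak score of that region in the day 0, day 9 or day 28 list as its height; the dotted line marks the saturated score of 3100. The shaded bands are the approximate stretches of the selection rule, and the second one holds 1 stem, at day 0 alone.

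Saturated peaks made up 13 of the 50 day 0 peaks (26.0%, 95% Wilson interval 15.9 to 39.6), 7 of the 43 day 9 peaks (16.3%, 8.12 to 29.97) and 11 of the 45 day 28 peaks (24.4%, 14.2 to 38.7). Over the whole lists these shares were 18.1%, 11.3% and 18.7%, each inside the domain's interval. The median peak width in the domain was 624.5 bp at day 0, 626 bp at day 9 and 736 bp at day 28. The medians of the whole lists were 552, 525 and 702 bp. Intervals cover counting error only.

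Most of the domain's regions were found on every day. Of the 49 regions, 41 (83.7%, 95% Wilson interval 71.0 to 91.5) held a peak in all 3 lists, against 52.3% of all regions and 51.6% of the regions of chromosome 7. Regions found at day 0 alone numbered 6 (12.2%, 5.73 to 24.2), against 31.1% of all regions. Another 2 regions (4.08%, 1.13 to 13.7) lacked a peak on day 9 only, against 7.53% of all regions. No region was found at day 9 alone, at day 28 alone, at day 0 and day 9 only or at day 9 and day 28 only. Over all chromosomes these classes held 1.245%, 2.741%, 3.605% and 1.503% of regions, in that order. A count of 0 of 49 allows a share of up to 6.12% at 3 counts of the total, or 7.27% by the upper bound of the 95% Wilson interval. Each share over all chromosomes lay below both limits, so no single class among these sets the domain apart by its count of 0. Whether the absence of all these classes at once sets the domain apart was not tested.

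**Figure D2:**
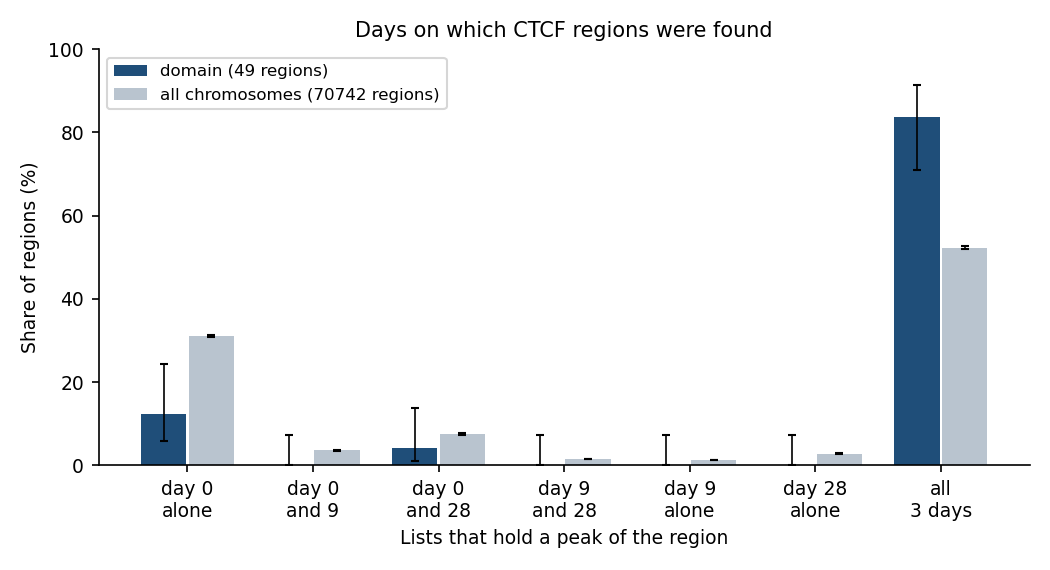
Bars give the share in percent of CTCF regions by the lists that held a peak, for the 49 regions of the domain and the 70742 regions of all chromosomes, with 95% Wilson intervals. The domain's bar for all 3 days stands at 83.7%, against 52.3% over all chromosomes.

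The day 0 scores of the regions went with this share. Where the day 0 peak stood above percentile 50 of its list, 38 of 39 domain regions (97.4%, 86.8 to 99.5) were found on all days, against 91.4% of 33559 such regions over all chromosomes. Where it stood at or below percentile 50, 3 of 10 (30.0%, 10.8 to 60.3) were, against 19.02% of 33300. Within each stratum the difference was smaller than in the pooled shares, and the domain's interval included the share over all chromosomes in both. The part of peak strength in the domain's share was not tested further.

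The regions found at day 0 alone were low in their list, with 1 exception. The highest-scoring lay at 150734322 to 150735418, at the end of the domain, with a score of 658.3 and a width of 1097 bp. The next lay at 150254874 to 150255648 (score 323.8) and at 150095514 to 150095922 (166.7). The other scores were 163.3, 117.2 and 105.86. Over all chromosomes, 5.20% of the 21988 regions found at day 0 alone stood above percentile 50 of the day 0 list. The count of 6 depended on list length and score: it was 2 with lists of equal size (the top 42774 peaks by score), and 3 when a score of at least 200 was required. Both regions not found at day 9 were also low. The region at 149656066 to 149657644 scored 446.05 at day 0 and 172.4 at day 28, and the region at 150230369 to 150231168 scored 473.5 and 219.4.

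The domain held more regions than most windows of its length, though its spacing over all regions was close to that of chromosome 7. The domain held 44.5 regions per Mb. Of 2389 consecutive windows of 1.1 Mb over all chromosomes, 465 (19.5%) held at least 49 regions, and the median window held 22. Of regions found on all days, 41 or more were held by 175 windows (7.33%), with a median of 12. On chromosome 7 alone, 33 of 138 windows (23.9%) held at least 49 regions, and 15 (10.9%) held 41 or more regions found on all days. The median distance between the centres of neighbouring regions was 10.5 kb in the domain (quartiles 4.26 and 29.2). It was 11.5 kb on chromosome 7 (4.26 and 29.3) and 13.1 kb over all chromosomes (4.77 and 33.6). Between neighbours found on all days the median was 11.6 kb in the domain (4.57 and 29.2). It was 20.4 kb on chromosome 7 (7.34 and 50.9) and 23.1 kb over all chromosomes (8.15 and 59.0). The domain's median spacing thus hardly widened when regions missing on some day were left out. That step kept 41 of the domain's 49 regions, against 36997 of 70742 over all chromosomes. The longest distance in the domain widened from 223.1 to 310.2 kb.

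**Figure D3:**
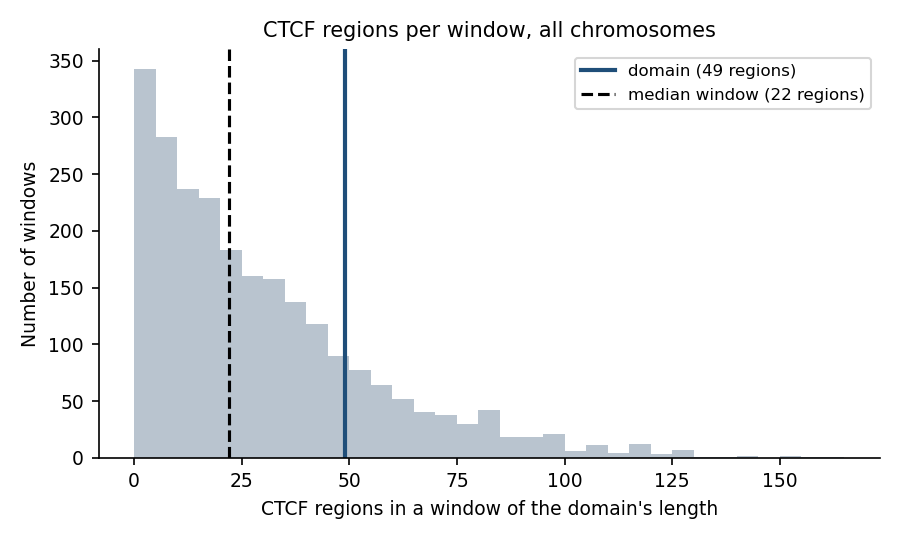
The histogram counts windows of 1.1 Mb over all chromosomes by the number of CTCF regions they hold, in bins of 5 regions. The solid line marks the domain with 49 regions and the dashed line the median window with 22.

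In the stretch given for H19 and Igf2, from 149.76 to 149.86 Mb, 5 regions were found, and each held a peak on all days. They formed a pair at the H19 end, a pair at the Igf2 end and a region between the pairs. The H19-end pair lay at 149765804 to 149767071 and at 149767442 to 149768302, with 1.43 kb between centres. The region between the pairs lay 28.7 kb farther on, at 149796192 to 149797052. The Igf2-end pair followed after another 60.5 kb, at 149856819 to 149857390 and at 149857809 to 149858657, with 1.13 kb between centres. Over all chromosomes, 10.5% of neighbouring regions lay less than 2 kb apart, and 14.6% (7 of 48) did so in the domain.

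Within the H19-end pair the member nearer the start of the stretch had the higher score in every list. It scored 3100 (saturated) at day 0, 1490 at day 9 and 2184 at day 28, and its peak was 1082, 1024 and 1268 bp wide. Its neighbour scored 2039 at day 0, 357 at day 9 and 1505.5 at day 28, with widths of 741, 653 and 857 bp. Scores of different lists cannot be set against each other, so both were also ranked among the 41 domain regions found on all days. The first was 1 of 13 regions tied at the highest rank on day 0 and stood at rank 16 on day 9 and rank 17 on day 28. Its neighbour stood at rank 21 on day 0, rank 36 on day 9 and rank 23 on day 28. Both thus stood lower within the domain at day 9 than at day 0, and at day 28 the neighbour was near its day 0 rank.

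The region between the pairs scored 2308 at day 0, 808.3 at day 9 and 2656 at day 28, at ranks 18, 23 and 14 of 41. In the Igf2-end pair the member farther along the chromosome scored higher in every list. It was saturated at day 0 and day 28 and scored 2003 at day 9, where it stood at rank 14. Its neighbour scored 774.6 at day 0, 490.4 at day 9 and 1957 at day 28, at ranks 36, 31 and 18. That region gained in rank at each step. A further region just past the stretch, at 149861420 to 149862108, scored 2012, 1144 and 2437, at ranks 22, 19 and 16.

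Before the H19 and Igf2 stretch, 8 regions lay in 110 kb, of which 7 were found on all days and 2 were saturated on all days. The saturated ones lay at 149682545 to 149684369 and at 149718492 to 149719775. The region at 149682545 was the widest of the domain (1825 bp), and the day 9 list split it into 2 peaks, scoring 1704 and 3100. The region at 149735642 to 149736502, named after its values were seen, scored 557.5 at day 0 and was saturated at day 9 and day 28. It stood at rank 38 of 41 at day 0 and was among the 7 regions tied at the highest rank on day 9 and the 11 on day 28. No other region of the domain was saturated at day 9 and not at day 0.

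Between both stretches, from 149.86 to 150.45 Mb, 27 regions were found, of which 22 were found on all days. The 3 saturated on all days lay at 150080375 to 150081280, 150104703 to 150105815 and 150193580 to 150194820. With the 2 before the H19 stretch and 1 near the end of the domain, 6 of the 49 regions (12.2%, 5.73 to 24.2) were saturated on all days, against 6.63% of all regions. The interval includes that share. The closest neighbours in the domain lay here, at 150254874 and 150255714, with 0.734 kb between centres, and both were found at day 0 alone.

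Close pairs of shared regions kept the same order of scores through the days. Among regions found on all days, 6 neighbouring pairs in the domain had less than 2 kb between centres, and in each the same member scored higher in every list (6 of 6, 95% Wilson interval 61.0 to 100). Over all chromosomes this held for 82.9% of the 1787 such pairs without a tie, a share inside the domain's interval. Beyond the H19-end and Igf2-end pairs, the region at 149922810 to 149923409 was saturated on day 0, scored 2384 on day 9 and was saturated on day 28. Its neighbour at 149923537, 0.827 kb away, scored 1233, 718.8 and 1387. The region at 150272045 to 150272835 scored 3100, 2122 and 3084, and its neighbour at 150273107 scored 2904, 1117 and 1408. In the group at 150336800, 150337985 and 150339204 the middle region was the lowest on every day, with 799.2, 303.4 and 633.8, and the last was the highest.

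The stretch from 150.45 to 150.57 Mb was the sparsest, with 1 region in 120 kb, or 8.33 per Mb, against 45.8 per Mb between the stretches and 50 per Mb in the H19 and Igf2 stretch. That region lay at 150562661 to 150563049 and held a day 0 peak alone, with a score of 163.3 and a width of 389 bp. It ended the longest gap of the domain: no region lay between 150340361 and 150562660, a gap of 222.3 kb. Distances as long (223 kb between centres) made up 2.51% of those over all chromosomes. It was the only 1 of the domain's 48 distances (2.08%) over 100 kb, against 7.40% over all chromosomes, so long distances were not more frequent in the domain. Between regions found on all days the gap spanned 310.2 kb between centres, reaching to 150649546, and 3.75% of such distances were as long. The lists number their peaks in order along a chromosome, and some numbers are missing. Whether a missing number stands for a called peak that was not listed was not tested. Within the gap, 1 number was missing at day 0. Up to the next listed peak, 2 were missing at day 9 and 1 at day 28. Elsewhere, 1 number was missing at day 9 between the listed peaks around the region at 150230369, which lacked a day 9 peak. Around the regions at 150254874 and 150255714, found at day 0 alone, 1 was missing at day 9 and 1 at day 28. None was missing on those days around the regions at 150095514 and 150143591, also found at day 0 alone. Why numbers are missing is not given in the sources used here. Over the whole domain 10 of 60 numbers were missing at day 0 (16.7%), 6 of 49 at day 9 (12.2%) and 9 of 54 at day 28 (16.7%), against 29.7%, 32.7% and 25.9% over the whole lists.

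After the gap, 3 high-scoring regions followed closely, with 2.47 and 3.68 kb between centres. They lay at 150649546 to 150650411, 150652003 to 150652899 and 150655657 to 150656611. The first scored 3100 on day 0, 2003 on day 9 and 2837 on day 28. The second scored 3100, 2563 and 3100, and the third was saturated on all days. On the near side, the gap began after 3 regions that were also found on all days, at 150336800, 150337985 and 150339204. The last of these was saturated at day 0 and day 28 and scored 2087 at day 9. The region that ended the gap of 222.3 kb, found at day 0 alone, lay 86.5 kb before the region at 150649546. Just outside the domain, the regions at 149643086 to 149643562 and at 150769720 to 150770572 were also found on all days.

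Shared regions were then compared by rank over all chromosomes. For this, percentiles of the score were computed in each list over the 23673 regions that had exactly 1 peak in each list and were saturated in none, of which 25 lay in the domain. On day 0 the median percentile of these 25 was 73.5, on day 9 it was 76.7 and on day 28 it was 79.4, against 50.0 by construction over all of them. The median difference, day 9 minus day 0, was 5.96 percentile points in the domain (quartiles -1.77 and 16.8), against 0.0465 over all chromosomes (-13.6 and 13.4), and 17 of 25 regions stood higher, against 50.1% over all chromosomes. At equal list size it was 9.30. For day 28 minus day 0 it was 9.42 (-3.79 and 19.4), against -0.368 (-16.4 and 15.8), and 18 of 25 stood higher, against 49.3%. For day 28 minus day 9 it was 3.54 (-5.42 and 10.9), against -0.253 (-10.3 and 9.65), and 14 of 25 stood higher, against 49.2%. The sign of this last median turned to -2.87 when scores of at least 200 were required and to -1.24 when saturated regions were kept. It was 2.18 at equal list size and 0.234 with an overlap of 50% of the shorter peak. The day 28 minus day 0 median was 4.95 with scores of at least 200 and 4.88 with saturated regions kept.

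**Figure D4:**
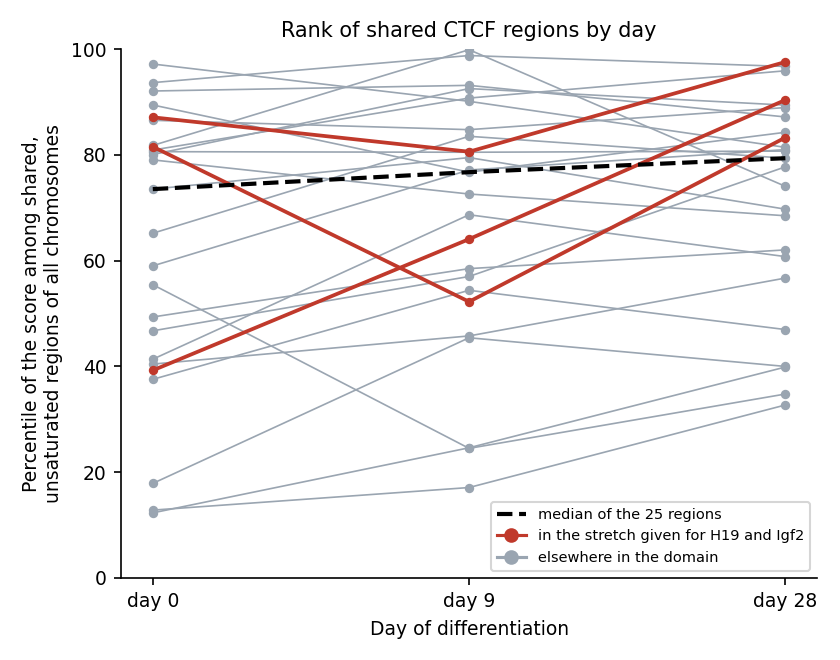
Each line is 1 of the 25 unsaturated shared regions of the domain, with its percentile among 23673 such regions at day 0, day 9 and day 28; red lines are the 3 regions in the H19 and Igf2 stretch and the dashed line is the median of the 25. The red lines all stand higher at day 28 than at day 9, and regions of the stretch saturated on any day are not drawn.

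Shifts of at least 20 points were near or below their background share in each direction. From day 0 to day 9, 3 of 25 regions stood higher by that much, against 16.8% over all chromosomes, and 2 stood lower, against 17.2%. From day 9 to day 28, 3 stood higher, against 10.8%, and 1 lower, against 10.9%. From day 0 to day 28, 5 stood higher, against 20.4%, and 1 lower, against 20.7%. Among the 25 ranked regions, the largest rise belonged to the region at 149856819, of the Igf2-end pair, which stood 51.2 points higher at day 28 than at day 0. The next were the region at 149767442, of the H19-end pair, with 31.1 points from day 9 to day 28, and the region at 149666904, with 31.0 points from day 0 to day 28. The largest fall belonged to the region at 150666303 to 150666900, with -31.0 points from day 0 to day 9. The region at 149767442 followed with -29.3 points from day 0 to day 9, and the region at 150188556 with -25.8 points from day 9 to day 28. The region at 149767442 thus appears among both the largest falls and the largest rises, and its net difference from day 0 to day 28 was 1.73 points. The other member of its pair was saturated at day 0 and has no value in this comparison. Nor has the region at 149735642, which was saturated at day 9 and day 28. Within the domain it went from rank 38 of 41 at day 0 to the highest rank, tied, on both later days.

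The 3 ranked regions of the H19 and Igf2 stretch differed from day 0 to day 9 by -29.3, -6.51 and 24.8 points, in order along the chromosome. From day 9 to day 28 they stood higher by 31.1, 17.0 and 26.3 points. Of the 25 domain regions, 14 stood higher in that step. The stretch's regions that were saturated on some day are not among these. In the same step the region at 149765804 went from own-list percentile 73.3 to 73.4. The region at 149857809 went from 79.5 to 90.7, where it was saturated. The order of the scores across the 25 regions had a Spearman's rho of 0.792 between day 0 and day 9, 0.735 between day 9 and day 28 and 0.732 between day 0 and day 28. Over all 23673 regions these values were 0.679, 0.831 and 0.612. With saturated regions kept, the values in the domain were 0.787, 0.880 and 0.802 over 38 regions, against 0.855, 0.928 and 0.822 over all 35371 such regions. The domain's values were thus above those over all chromosomes for day 0 and day 9 and for day 0 and day 28 only when saturated regions were left out. The regions share libraries and neighbourhoods, so these values only describe the lists.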

How the data were processed

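CTCF ChIP-seq peak lists of MC3T3-E1 cells at day 0, day 9 and day 28 were used, 1 list for each day. The submitters' processing notes name build mm9 and the tools MACS 1.4.1, Bowtie 0.12.8 and CASAVA 1.6. Per the labels, inserts of 200 ± 50 bp were read for 36 bases, with 2 repeats for each day and 2 input libraries; how these were combined is not given in the sources used here. The deposited lists give 5 columns, of which the last is a score for each peak; it was used only within a list. Read depth is unknown.

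Positions were converted to count from 1. Peaks sharing at least 1 bp were joined, a step checked against bedtools 2.31.1 and tested on simulated data. Ranks, spacing and Wilson intervals were computed with Python 3.11.15, pandas 2.3.3 and scipy 1.17.1. With 1 list a day there was no test between days. Named were all regions from 149.76 to 149.86 Mb and from 150.45 to 150.57 Mb, regions saturated on all days, the highest-scoring regions of 1 day, the widest region, the closest neighbours, the longest gap and the largest shifts of percentile. The members and these lists were chosen with earlier results of these data known. Alternatives were equal list size, a score of at least 200, an overlap of 50% of the shorter peak and saturated regions kept.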

Additional observations from a re-analysis of the deposited data

How the results depend on the processing

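No paired analysis was possible because each day is represented by 1 list, and no replicate could be left out. Of 40 values recomputed under the alternatives, 31 stayed within 1.5 times of the reported value and 9 moved. Equal list size and a score of at least 200 changed the number of regions found at day 0 alone from 6 to 2 and 3. At equal list size the median percentile differences were 9.30 (day 9 minus day 0) and 2.18 (day 28 minus day 9). The day 28 minus day 9 median was -2.87 with scores of at least 200, 0.234 with an overlap of 50% of the shorter peak and -1.24 with saturated regions kept. The day 28 minus day 0 median was 4.95 with scores of at least 200 and 4.88 with saturated regions kept. Fewer or other regions enter each setting; the cause was not tested further. The share of regions found on all days was 91.1% in the domain and 65.1% over all chromosomes at equal list size, and 84.4% and 54.0% with scores of at least 200. These shares under the alternatives, and those settings for the number of regions, were added after seeing the data, as were the score of at least 200 and the 50% overlap for the percentile differences. Unknown read depth and the lack of replicate lists limit all comparisons between days.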
